A study of Homo sapiens with 6 samples.

Results

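The genes described here encode subunits of the mitochondrial respiratory chain and ATP synthase, together with the 2 ribosomal RNAs of the mitochondrial genome. They were chosen by name as a fixed list of 57 genes, and all 57 matched a gene of the deposited table of 60612. Of these, 15 lie on the mitochondrial chromosome and 42 are nuclear. All 57 passed the filter on low counts, as did 18863 genes in all. The RNA came from the human cell line PANC-1, which was derived from a carcinoma of the pancreas. There were 3 libraries of cells given 50 µM D(+)-raffinose pentahydrate, a plant trisaccharide, for 24 h, and 3 libraries of untreated cells, for which the labels name neither a vehicle nor a time. All cells were grown in the same medium with serum and antibiotics. The groups rest on the sample titles and source names, since the treatment protocol in the labels has the same text, naming raffinose, for all 6 samples. The labels do not say whether the replicates were grown separately, so a p-value here sets a difference against the spread between libraries, and that spread may be only technical.

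The respiratory chain passes electrons through complexes I to IV of the inner mitochondrial membrane and pumps protons, and complex V, the ATP synthase, uses the proton gradient to make ATP. It is built from 2 genomes. The small circular mitochondrial DNA encodes core membrane subunits of complexes I, III, IV and V and the RNAs of the mitochondrial ribosome, while complex II and all remaining subunits are encoded in the nucleus and imported. Both strands of mitochondrial DNA are transcribed as long precursors, from which the mRNAs are cut at the transfer RNAs that lie between them, and most of the mRNAs are then polyadenylated. In pancreatic carcinoma, as in other tumours, the balance between oxidative phosphorylation and glycolysis is a long-studied trait.

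The mitochondrial genes are packed so closely that some share bases, which bears on how reads are given to them. In the deposited table MT-ATP8 (mitochondrial chromosome, 8366 to 8572) and MT-ATP6 (8527 to 9207), both subunits of ATP synthase and carried by the same mRNA, overlap by 46 bases. MT-ND4L (10470 to 10766) and MT-ND4 (10760 to 12137), membrane subunits of complex I that also share an mRNA, overlap by 7 bases. The sequences are those of the GENCODE 29 transcripts, whose positions for all 15 mitochondrial genes were the same as in the table. They are shown 5′ to 3′ on the plus strand with the shared bases in capitals, for MT-ATP8 in full and otherwise for the 120 bases at the overlapping end.
MT-ATP8: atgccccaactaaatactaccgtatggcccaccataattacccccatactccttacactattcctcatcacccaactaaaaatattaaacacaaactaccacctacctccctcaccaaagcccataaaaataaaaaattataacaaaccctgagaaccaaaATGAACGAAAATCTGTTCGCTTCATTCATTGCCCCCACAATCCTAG
MT-ATP6, start: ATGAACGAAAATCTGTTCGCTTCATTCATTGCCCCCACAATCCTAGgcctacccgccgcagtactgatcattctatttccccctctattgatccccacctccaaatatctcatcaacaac
MT-ND4L, end: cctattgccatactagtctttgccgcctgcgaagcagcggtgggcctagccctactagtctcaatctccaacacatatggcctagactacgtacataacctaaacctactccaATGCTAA
MT-ND4, start: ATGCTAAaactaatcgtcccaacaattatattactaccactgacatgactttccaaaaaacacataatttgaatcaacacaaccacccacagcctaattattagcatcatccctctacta

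By edgeR's quasi-likelihood test with Benjamini-Hochberg adjustment over all genes, 0 of the 57 members were called at an adjusted p under 0.05, where 0.122% of all genes were called (0.0371% higher with raffinose and 0.0848% lower). DESeq2 called 1 member, MT-RNR2, as higher, against 1.35% of all genes higher and 2.17% lower (3.51% in all). At an unadjusted p under 0.05 in edgeR, 4 members were higher and 1 was lower, where 6.21% of all genes were higher and 7.08% lower (13.3% in all). All 5 had groups that did not overlap. Of the mitochondrially encoded members, 14 of 15 had a positive log2 fold change (raffinose over untreated) with a median of 0.08, and of the nuclear members 28 of 42 had a negative one with a median of -0.02. The median of all genes tested was 0.01. In RNA from whole cultures, fewer cells of a kind and less RNA per cell cannot be told apart.

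**Figure D1:**
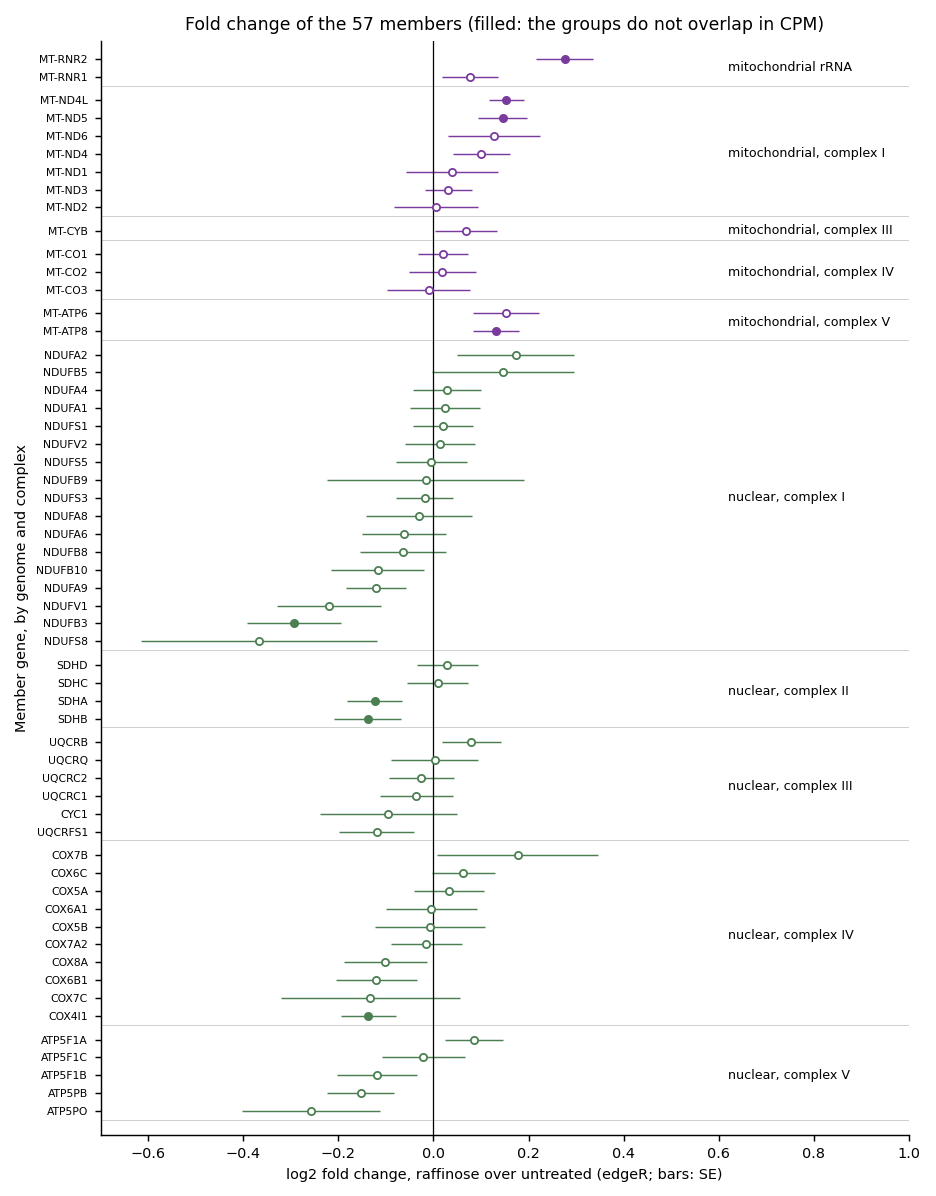
Log2 fold change of raffinose over untreated libraries for each of the 57 members on the x axis, by genome and complex on the y axis; bars are standard errors of the edgeR fit, and filled points mark members whose groups did not overlap in CPM. The 4 filled mitochondrial points lie right of 0 and the 4 filled nuclear points left of it, and members range from -0.37 for NDUFS8 to 0.28 for MT-RNR2.

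The ribosomal RNAs come first on the transcribed strand. MT-RNR2 (ENSG00000210082, mitochondrial chromosome, 1671 to 3229, plus strand), the RNA of the large mitochondrial ribosomal subunit, was at 5424, 5662 and 5502 CPM (a gene's count relative to the depth of its library, with TMM factors) in raffinose replicates 1, 2 and 3, against 4954, 4394 and 4350 CPM in untreated replicates 1, 2 and 3. Every raffinose library lay above every untreated one. The log2 fold change was 0.28 (SE 0.06), with an adjusted p of 0.169 by edgeR and 0.0442 by DESeq2. MT-RNR1, the RNA of the small subunit (648 to 1601), was at 860, 910 and 840 CPM in raffinose libraries and at 874, 793 and 807 CPM in untreated ones. The groups overlapped, and the log2 fold change was 0.08 (SE 0.06, edgeR adjusted p = 0.631).

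A ratio of genes within a library does not depend on how libraries are scaled to each other. MT-RNR2 over MT-RNR1, in FPKM (fragments per length of transcript and depth of library), was 3.86, 3.81 and 4.01 in raffinose replicates 1 to 3, against 3.47, 3.39 and 3.30 in untreated replicates 1 to 3. The groups did not overlap in this ratio. Together these RNAs took 6.57%, 6.91% and 6.96% of the counts of the mitochondrial chromosome in raffinose libraries, against 5.94%, 6.13% and 5.98% in untreated ones. As the libraries were made from poly(A) RNA, both levels also depend on how much of each RNA was captured. Whether capture differed between the groups was not tested.

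In complex I, the entry point for electrons from NADH, all 7 mitochondrially encoded subunits had a positive log2 fold change, from 0.0047 for MT-ND2 to 0.15 for MT-ND4L. MT-ND4L (ENSG00000212907) was at 2573, 2513 and 2547 CPM in raffinose libraries, against 2290, 2292 and 2281 CPM in untreated ones. All raffinose libraries were above all untreated ones, and the log2 fold change of 0.15 (SE 0.04) had an edgeR adjusted p of 0.191. MT-ND5 (ENSG00000198786, 12337 to 14148), a proton-pumping subunit, was at 5802, 5576 and 5765 CPM with raffinose and at 5494, 4948 and 5056 CPM without. The groups did not overlap here either, with a log2 fold change of 0.15 (SE 0.05, edgeR adjusted p = 0.309).

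MT-ND4, which shares its mRNA with MT-ND4L, was at 15976, 15764 and 15192 CPM in raffinose libraries, against 15868, 13963 and 13925 CPM in untreated ones. Untreated replicate 1 reached the raffinose range, and the log2 fold change was 0.10 (SE 0.06). MT-ND6, the only member on the other strand (14149 to 14673, minus strand), was at 2265, 2222 and 2174 CPM with raffinose and at 2357, 1888 and 1853 CPM without (log2 fold change 0.13, SE 0.10). Again untreated replicate 1 stood above the rest of its group and above all raffinose libraries. MT-ND1, MT-ND2 and MT-ND3 had log2 fold changes of 0.04, 0.0047 and 0.03, each smaller than its SE.

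In complexes III and IV the groups overlapped for all 4 mitochondrial genes. MT-CYB, cytochrome b of complex III, averaged 7369 ± 233 CPM in raffinose libraries and 7029 ± 574 CPM in untreated ones (SD, n = 3 each; log2 fold change 0.07, SE 0.07). The core subunits of complex IV had log2 fold changes of 0.02 for MT-CO1, 0.02 for MT-CO2 and -0.01 for MT-CO3. MT-CO1 averaged 14009 ± 99.8 CPM with raffinose and 13813 ± 924 CPM without. The spread of the untreated libraries was wider than the difference in each of these 4 genes.

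In complex V, MT-ATP8 (ENSG00000228253), a small membrane subunit of ATP synthase, was at 1969, 1911 and 1946 CPM in raffinose libraries, against 1857, 1764 and 1699 CPM in untreated ones. All raffinose libraries were above all untreated ones, with a log2 fold change of 0.13 (SE 0.05, edgeR adjusted p = 0.321). MT-ATP6, which forms part of the proton channel, was at 2474, 2506 and 2303 CPM with raffinose and at 2384, 2053 and 2111 CPM without. Raffinose replicate 3 fell below untreated replicate 1, and the log2 fold change was 0.15 (SE 0.07).

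Across the 15 mitochondrial members, 4 had groups that did not overlap in CPM with raffinose higher (26.7%) and 0 with raffinose lower, where 10.6% of all genes were apart with raffinose higher and 10.9% with raffinose lower (21.5% in all). In the deposited FPKM, which are scaled differently, 8 of 15 were apart with raffinose higher (53.3%) and 0 with raffinose lower, against 13.5% and 8.98% of all genes. These 8 were MT-ND3, MT-ND4, MT-ND4L, MT-ND5, MT-ATP6, MT-ATP8, MT-RNR1 and MT-RNR2. Mitochondrial genes come from shared precursors and move together within a library, so they are not independent of each other.

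**Figure D2:**
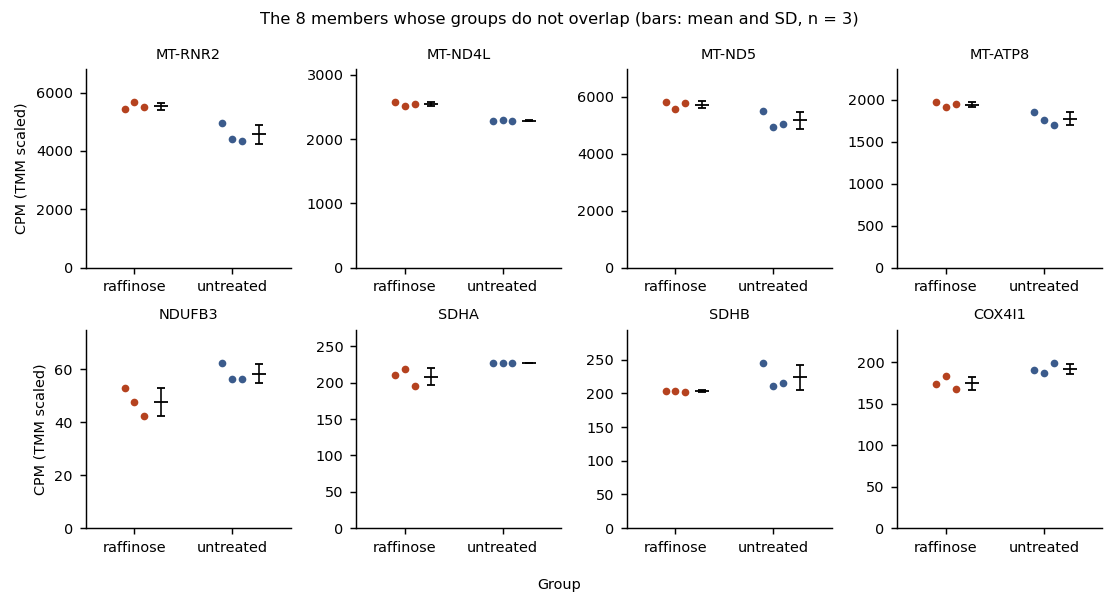
CPM after TMM scaling on the y axis, from 0, for the 8 members whose groups did not overlap, with 3 raffinose and 3 untreated libraries each; black bars give the mean and SD of each group. MT-RNR2 averaged 5529 CPM with raffinose and 4566 CPM without, and NDUFB3 averaged 47.6 CPM with raffinose and 58.3 CPM without.

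Levels of different genes can be set side by side only per length, in FPKM. Over all 6 libraries MT-CO2 was highest with a mean of 13161 FPKM, followed by MT-ND4 with 9145 and MT-CO3 with 8551 FPKM. MT-RNR1 was lowest of the mitochondrial members with 740.4 FPKM. As the libraries were made from poly(A) RNA, the places of MT-RNR1 and MT-RNR2 in this order also depend on their capture. Several neighbours in the order of FPKM lay closer than 1 SD over the libraries, namely MT-CO1 and MT-ATP8 (7520 and 7487 FPKM), MT-ND4L and MT-ND1 (6788 and 6723), MT-CYB and MT-ND2 (5260 and 5252), and MT-ATP6, MT-RNR2 and MT-ND5 (2823, 2702 and 2504). MT-ND4L is 297 and MT-ATP8 207 bases long, which is near or below the size of the sequenced inserts, so their FPKM are uncertain.

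**Figure D3:**
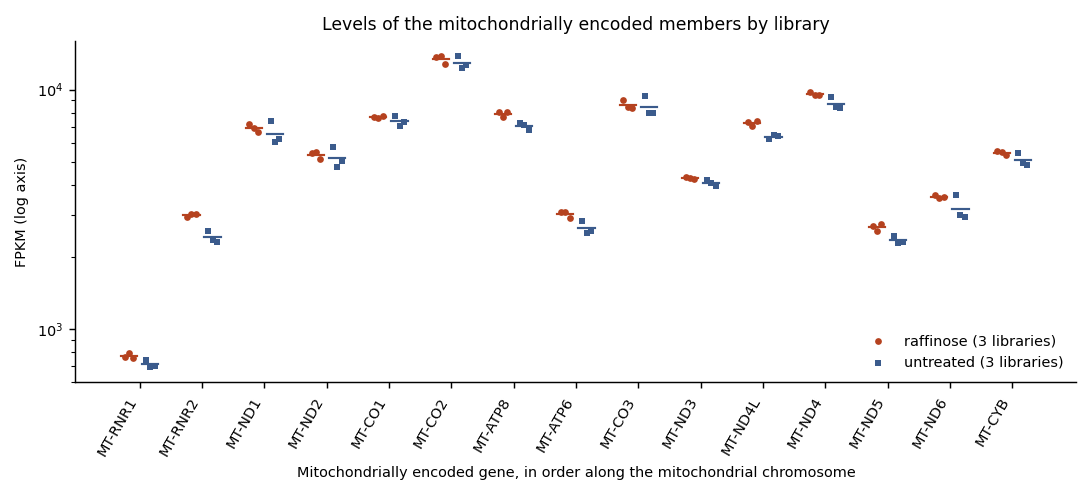
FPKM on a log axis for the 15 mitochondrially encoded members, in the order of their genes along the mitochondrial chromosome, with 3 raffinose libraries left of 3 untreated ones for each gene; short lines are group means. MT-CO2 is highest and MT-RNR1 lowest, with means over all libraries of 13161 and 740.4 FPKM. Levels of MT-RNR1 and MT-RNR2 also depend on their capture in poly(A) libraries.

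Genes that share an mRNA did not have the same FPKM. MT-ATP8 over MT-ATP6 was 2.62, 2.51 and 2.78 in raffinose replicates 1 to 3, against 2.56, 2.83 and 2.65 in untreated replicates 1 to 3. MT-ND4L over MT-ND4 was 0.75, 0.74 and 0.78 with raffinose, against 0.67, 0.76 and 0.76 without. The groups overlapped in both ratios.

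Near-identical nuclear copies of 6 mitochondrial genes, on chromosome 1 between 629062 and 634922, also held counts. Whether reads under these copies came from the mitochondrial genes or from the copies was not tested. MT-ATP6 and its copy MTATP6P1 are both 681 bases long in GENCODE 29 and differ at 10 of them (98.5% identity). MTATP6P1 held 32.8%, 31.1% and 31.3% of the counts of the pair in raffinose libraries, against 32.9%, 32.3% and 31.4% in untreated ones. With the copy added, MT-ATP8 over MT-ATP6 was between 1.73 and 1.91 with raffinose and between 1.72 and 1.91 without. MTND2P28 held 9.37% of the counts of its pair with MT-ND2 over all libraries and MTCO1P12 4.91% of those with MT-CO1. For MT-ND1, MT-CO2 and MT-CO3 the share was under 1%, between 0.309% and 0.71%. MTCO1P12 held 6.57%, 6.04% and 2.21% in raffinose replicates 1 to 3, against 6.10%, 4.31% and 3.89% in untreated ones, with raffinose replicate 3 the lowest. Adding the copies moved the log2 fold change of MT-ATP6 to 0.14 and that of MT-ND2 to 0.03. Copies on other chromosomes were far lower in mean FPKM, at 3.68 for MTND6P4, 3.19 for MTCO2P2, 1.5 for MTND4P12 and 1.40 for MTRNR2L12, a copy of MT-RNR2.

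**Figure D4:**
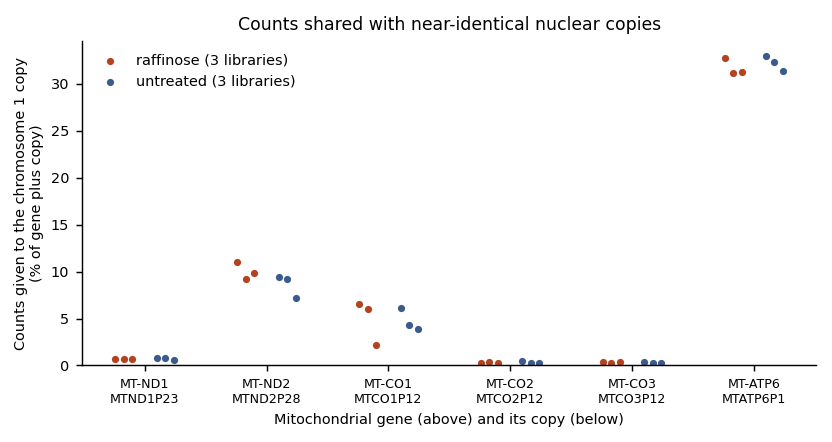
Share of the counts of a mitochondrial gene and its chromosome 1 copy that stands under the copy, in percent on the y axis, for 6 pairs, with 3 raffinose libraries left of 3 untreated ones. MTATP6P1 holds between 31.1% and 32.9%, MTND2P28 between 7.24% and 11.0%, and MTCO1P12 between 2.21% and 6.57%.

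Nuclear subunits of complex I were split between directions, with 6 of 17 positive and 11 negative, and the log2 fold change of the middle gene was -0.02. NDUFB3 (ENSG00000119013, chromosome 2, 201071433 to 201085750, plus strand), an accessory membrane-arm subunit, was at 53.0, 47.6 and 42.2 CPM in raffinose libraries, against 62.3, 56.4 and 56.3 CPM in untreated ones. All raffinose libraries were lower, with a log2 fold change of -0.29 (SE 0.10, edgeR adjusted p = 0.301). The iron-sulfur subunit NDUFS8 was at 49.2, 59.6 and 56.8 CPM with raffinose and at 100.5, 62.6 and 50.5 CPM without. Its log2 fold change of -0.37 (SE 0.25) was the most negative of the 57 members, and untreated replicate 1 lay far above its group. Without that library the log2 fold change was -0.04.

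NDUFV1, which binds the flavin cofactor and NADH, averaged 97.9 ± 14.3 CPM in raffinose libraries and 114 ± 5.32 CPM in untreated ones (SD, n = 3 each; log2 fold change -0.22, SE 0.11). NDUFA9, an accessory subunit, averaged 129 ± 7.55 CPM in raffinose libraries and 141 ± 4.42 CPM in untreated ones (-0.12, SE 0.06). By FPKM NDUFS5, another accessory subunit, was the most abundant nuclear member with a mean of 461 FPKM, and NDUFB5 the least with 8.23 FPKM. NDUFS5 was at 303 ± 19.3 CPM with raffinose and 304 ± 21.0 CPM without. NDUFA4, counted here with complex I by its symbol, is now regarded as a subunit of complex IV and had a log2 fold change of 0.03.

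Complex II, succinate dehydrogenase, is wholly nuclear and joins the citric acid cycle to the chain. SDHA (ENSG00000073578, chromosome 5, 218241 to 257082, plus strand), the flavoprotein, was at 210.0, 219 and 196 CPM in raffinose libraries, against 227, 227 and 227 CPM in untreated ones. SDHB (ENSG00000117118, chromosome 1, 17018722 to 17054032, minus strand), the iron-sulfur subunit, was at 204, 204 and 202 CPM with raffinose and at 245, 211 and 216 CPM without. Both had all raffinose libraries below all untreated ones, with log2 fold changes of -0.12 (SE 0.06, edgeR adjusted p = 0.429) for SDHA and -0.14 (SE 0.07, edgeR adjusted p = 0.460) for SDHB. Without untreated replicate 1 that of SDHB was -0.07. The membrane anchors SDHC (0.0088, SE 0.06) and SDHD (0.03, SE 0.06) had overlapping groups.

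In complex III, which takes electrons from ubiquinol to cytochrome c, 2 of 6 nuclear subunits were positive and the groups overlapped for all 6. The Rieske iron-sulfur protein UQCRFS1 averaged 301 ± 23.9 CPM in raffinose libraries and 327 ± 20.5 CPM in untreated ones (SD, n = 3 each; log2 fold change -0.12, SE 0.08). Cytochrome c1, CYC1, was at 191, 149.9 and 133 CPM with raffinose and at 187, 159 and 161 CPM without. The core subunit UQCRC1 had a log2 fold change of -0.04 (SE 0.08) and UQCRB one of 0.08 (SE 0.06).

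Of the 10 nuclear subunits of complex IV, cytochrome c oxidase, 3 were positive and 7 negative. COX4I1 (ENSG00000131143, chromosome 16, 85798633 to 85807068, plus strand), a regulatory subunit, was at 173, 183 and 167 CPM in raffinose libraries, against 190.1, 187 and 199 CPM in untreated ones. Its groups did not overlap, and the log2 fold change was -0.14 (SE 0.06, edgeR adjusted p = 0.381). The largest positive value of the nuclear members was that of COX7B with 0.18 (SE 0.17), at 123, 127 and 112 CPM with raffinose and 129.7, 111 and 80.1 CPM without. It was 0.0062 without untreated replicate 3 and 0.34 without untreated replicate 1. COX8A, the most abundant nuclear subunit of this complex by FPKM, had -0.10 (SE 0.09), COX6B1 -0.12 (SE 0.08) and COX6C 0.06 (SE 0.07).

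In complex V, 4 of 5 nuclear subunits were negative and the groups overlapped for all 5. ATP5F1B, the catalytic beta subunit, averaged 1092 ± 100.3 CPM in raffinose libraries and 1185 ± 84.5 CPM in untreated ones (SD, n = 3 each; log2 fold change -0.12, SE 0.08). ATP5F1A, the alpha subunit, averaged 623 ± 39.9 CPM with raffinose and 587 ± 17.9 CPM without (0.09, SE 0.06). The stalk subunits ATP5PB and ATP5PO had log2 fold changes of -0.15 (SE 0.07) and -0.26 (SE 0.15). ATP5PO was at 168, 182 and 164 CPM with raffinose and at 252, 171 and 191 CPM without, and its log2 fold change was -0.08 without untreated replicate 1. Many small nuclear subunits have processed pseudogenes, and SDHA has duplicated copies, so their counts may be split between copies.

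Of the 42 nuclear members, 0 were apart with raffinose higher and 4 with raffinose lower (9.52%), against 10.6% and 10.9% of all genes. The share with raffinose lower was near that of all genes, while the share with raffinose higher was below it. In FPKM 3 were apart with raffinose higher (7.14%), which were UQCRB, COX6C and ATP5F1A, and 4 with raffinose lower (9.52%), against 13.5% and 8.98% of all genes. The sign of the nuclear median turned with the scaling, being 0.01 for log2(FPKM + 1), whereas that of the mitochondrial median was positive there too, at 0.11.

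The nuclear members moved together between libraries of the same group, a pattern noticed after their values were seen. Within the raffinose group replicate 2 was highest for 36 of 42 (85.7%), against 36.2% of all genes tested. Within the untreated group replicate 1 was highest for 35 of 42 (83.3%), against 36.9% of all genes tested. For the mitochondrial members untreated replicate 1 was highest of its group in 14 of 15, the exception being MT-ND4L, while in the raffinose group replicate 1 led in 8 and replicate 2 in 7. Untreated replicate 1 had the highest total count of the 6 libraries, 66063664, and the lowest TMM factor, 0.973. Raffinose replicate 2 had the highest total count of its group, 63553897, and the lowest TMM factor of its group, 0.997. Their part in the pattern was not tested.

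**Figure D5:**
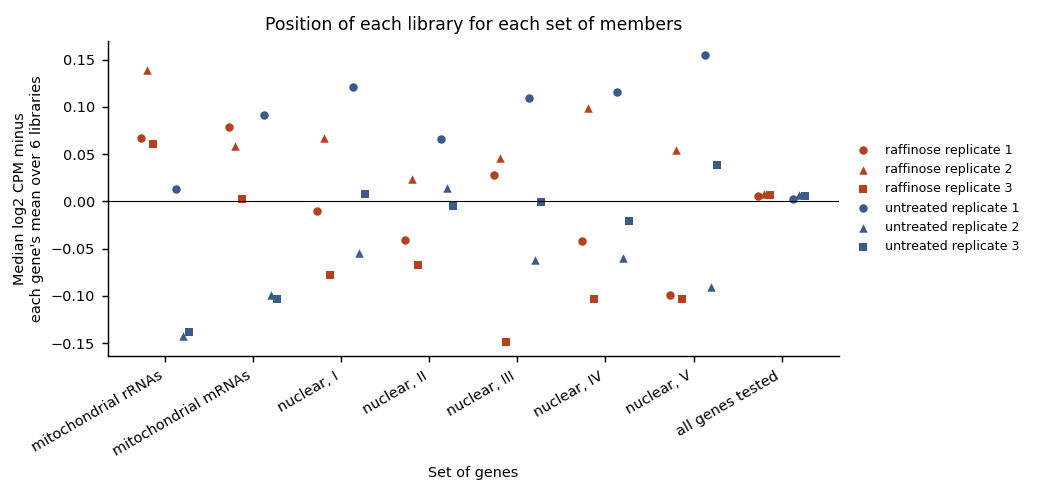
Median over each set of the log2 CPM minus the gene's own mean over 6 libraries, on the y axis, for mitochondrial rRNAs, mitochondrial mRNAs, nuclear members of complexes I to V and all genes tested; colours mark the group and shapes the replicate number. Untreated replicate 1 is highest for the mitochondrial mRNAs, at 0.09, and for nuclear members of every complex, while for the rRNAs it lies below all raffinose libraries.

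With 1 library left out at a time, the mitochondrial median changed most without untreated replicate 1. Without that library the mitochondrial median was 0.15 in place of 0.08 and the nuclear median 0.02 in place of -0.02. Without untreated replicate 2 they were 0.05 and -0.08. Reads of the mitochondrial chromosome made up 9.66%, 9.48% and 9.35% of all counts in raffinose libraries, against 9.54%, 8.47% and 8.54% in untreated ones. For MT-RNR2 the log2 fold change stayed between 0.24 and 0.34 with any library left out, and for MT-ND4L between 0.15 and 0.16. In these 6 fits 0 members were called.

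Within each library the mean FPKM of the mitochondrial subunits of a complex was set over that of its nuclear members. For complex I this ratio was 85.4, 78.8 and 84.4 in raffinose libraries, against 77.3, 77.7 and 74.7 in untreated ones. For complex III it was 96.8, 100.4 and 109 with raffinose and 94.7, 93.7 and 90.3 without, and for complex V 45.5, 40.1 and 46.1 with raffinose and 39.8, 36.6 and 34.4 without. The groups did not overlap in these 3 ratios. Raffinose replicate 2 was close to untreated replicate 2 in complex I and to untreated replicate 1 in complex V. For single genes in FPKM, 13.5% of all tested were apart with raffinose higher. The complex III ratio has a single mitochondrial gene, MT-CYB, whose groups overlapped in CPM. In complex V, MT-ATP8 (mean 7487 FPKM, uncertain for its length) outweighed MT-ATP6 (2823 FPKM). ATP5F1B, with a mean of 424 FPKM, was the highest nuclear member of complex V. In complex I, where NDUFA4 was also counted, NDUFS5 was the highest nuclear member with a mean of 461 FPKM. For complex IV the ratio was 113, 100.7 and 111 with raffinose and 104, 103 and 102 without, and the groups overlapped. All 4 ratios are levels within a library, and genes of different length enter them per length.

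The promoters of nuclear respiratory genes are known to hold sites for NRF1, for the ETS-family factor GABP and for YY1, which is one reason they are studied as a group. RefSeq promoters (GRCh38.p14, 250 bases before to 50 after the start) were matched for 33 of 42 nuclear members and searched on both strands. A perfect palindrome of the NRF1 motif was found in 3 of 33 (9.09%), against 1.24% of all 35116 promoters. The ETS sequence CCGGAAGT was found in 5 (15.2%), against 4.14%, and the YY1 sequence AAGATGGC in 6 (18.2%), against 2.89%. The members had 1 promoter each, while the set of all promoters was not reduced to 1 per gene or limited to genes tested here. A match is a description of the letters and not a bound site. The 3 promoters with the NRF1 palindrome are shown 5′ to 3′ on the strand of the gene. Their members stood on both sides of 0 with overlapping groups, with log2 fold changes of 0.03 for SDHD, -0.02 for ATP5F1C and -0.03 for NDUFA8. Capitals mark the NRF1 palindrome and, in SDHD, also the ETS sequence on the opposite strand, and no bases of the motifs overlap. They lie at chr11:112086623-112086922 (plus strand), chr10:7787927-7788226 (plus strand) and chr9:122159730-122160029 (minus strand).
SDHD: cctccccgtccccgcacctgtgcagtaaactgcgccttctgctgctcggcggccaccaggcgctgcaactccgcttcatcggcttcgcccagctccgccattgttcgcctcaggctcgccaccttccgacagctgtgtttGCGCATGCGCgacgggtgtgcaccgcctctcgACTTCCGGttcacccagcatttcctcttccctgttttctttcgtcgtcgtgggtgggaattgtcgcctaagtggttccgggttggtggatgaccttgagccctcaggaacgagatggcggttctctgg
ATP5F1C: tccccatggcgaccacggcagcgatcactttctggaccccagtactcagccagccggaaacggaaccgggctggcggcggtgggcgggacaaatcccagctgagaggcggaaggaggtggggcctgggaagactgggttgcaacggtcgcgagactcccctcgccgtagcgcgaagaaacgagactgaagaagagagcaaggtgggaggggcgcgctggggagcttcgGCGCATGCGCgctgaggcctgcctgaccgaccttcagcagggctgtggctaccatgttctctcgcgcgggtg
NDUFA8: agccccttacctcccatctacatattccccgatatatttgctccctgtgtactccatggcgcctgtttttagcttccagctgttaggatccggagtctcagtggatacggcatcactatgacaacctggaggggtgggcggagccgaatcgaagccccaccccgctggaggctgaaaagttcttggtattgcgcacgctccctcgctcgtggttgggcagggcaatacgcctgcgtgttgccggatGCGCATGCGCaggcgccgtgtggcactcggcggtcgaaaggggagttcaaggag

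The factors themselves were not called by edgeR or DESeq2. NRF1 was at 19.4 ± 2.10 CPM in raffinose libraries and 18.4 ± 3.52 CPM in untreated ones (SD, n = 3 each). GABPA, the DNA-binding subunit of GABP, was at 55.0 ± 5.87 CPM with raffinose and 59.4 ± 8.29 CPM without, and the nuclear receptor ESRRA at 42.0 ± 4.83 CPM with raffinose and 43.6 ± 14.3 CPM without. PPRC1, a coactivator of respiratory genes, had a log2 fold change of -0.27 (SE 0.09), and raffinose libraries lay below untreated ones. HCFC1, a partner of GABP, had -0.16 (SE 0.07) and the transcription factor CREB1 0.56 (SE 0.39), with overlapping groups in both. PPARGC1A, a coactivator of mitochondrial biogenesis, had a mean of 0.00325 FPKM and was not tested. Of the 9 tested genes in this list 4 were positive and 5 negative. At an unadjusted p under 0.05 in edgeR 0 were higher and 1 was lower, against 6.21% and 7.08% of all genes.

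Among 39 tested respiratory subunits outside the members, 15 were positive and 24 negative. By edgeR 0 were called, with 3 lower at an unadjusted p under 0.05, against 7.08% of all genes. DESeq2 called 2 lower, against 2.17% of all genes. Groups were apart in CPM with raffinose lower in 3 (7.69%) and higher in 1 (2.56%), against 10.9% and 10.6% of all genes. ATP5MC1, which encodes a c subunit of the ATP synthase ring, was at 103, 108 and 100.1 CPM in raffinose libraries, against 143, 124 and 135 CPM in untreated ones (log2 fold change -0.37, SE 0.07, DESeq2 adjusted p = 0.00445, edgeR adjusted p = 0.146). NDUFB7, which was not called by either test, had -0.37 (SE 0.12, DESeq2 adjusted p = 0.122, edgeR adjusted p = 0.282). The electron carrier CYCS had 0.02 (SE 0.05).

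Of 33 tested genes for the copying, transcription and processing of mitochondrial nucleic acids, 8 were positive and 25 negative, with 0 called by edgeR or DESeq2. At an unadjusted p under 0.05 in edgeR, 5 were lower and 1 higher, against 7.08% and 6.21% of all genes. Groups were apart in CPM with raffinose lower in 5 (15.2%) and higher in 2 (6.06%), against 10.9% and 10.6% of all genes. The mitochondrial RNA polymerase POLRMT averaged 63.4 ± 3.89 CPM in raffinose libraries and 74.5 ± 1.75 CPM in untreated ones, with a log2 fold change of -0.23 (SE 0.07, edgeR adjusted p = 0.242). TFB1M, a methyltransferase of the small ribosomal RNA, had -0.29 (SE 0.08) and the transfer RNA methyltransferase TRMT5 -0.28 (SE 0.08). TFAM, which packages mitochondrial DNA and starts its transcription, was at 73.2 ± 1.87 CPM with raffinose and 68.6 ± 0.962 CPM without (0.09, SE 0.05). Raffinose libraries were below untreated ones for POLRMT, TFB1M and TRMT5 and above them for TFAM.

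Among 49 assembly factors 22 were positive and 27 negative, with 0 called by edgeR. At an unadjusted p under 0.05 in edgeR, 2 were higher and 6 lower, against 6.21% and 7.08% of all genes. Groups were apart in CPM with raffinose higher in 3 (6.12%) and lower in 7 (14.3%), against 10.6% and 10.9% of all genes. DESeq2 called LYRM7 higher and NDUFAF3 and ECSIT lower, against 1.35% of all genes higher and 2.17% lower. LYRM7, a chaperone for the Rieske protein of complex III, was at 32.7, 31.3 and 12.5 CPM in raffinose libraries, against 6.4, 11.2 and 7.79 CPM in untreated ones, with a log2 fold change of 1.59 (SE 0.40, DESeq2 adjusted p = 0.00138, edgeR adjusted p = 0.199). Its value in raffinose replicate 3 was close to that of untreated replicate 2. The complex I assembly genes NDUFAF3 and ECSIT had log2 fold changes of -0.39 (SE 0.10, edgeR adjusted p = 0.211) and -0.65 (SE 0.19, edgeR adjusted p = 0.259), and COA7, needed for complex IV, -0.18 (SE 0.05). For import and inner membrane genes 5 of 19 were positive, and DESeq2 called the matrix protease LONP1 lower (-0.53, SE 0.12, DESeq2 adjusted p = 0.00782, edgeR adjusted p = 0.176). TIMM50 and TOMM22, which carry proteins through the inner and outer membranes, had -0.26 (SE 0.07) and -0.21 (SE 0.06). By edgeR 0 of this list were called, with 4 lower at an unadjusted p under 0.05, against 7.08% of all genes. Groups were apart in CPM with raffinose lower in 5 (26.3%) and higher in 1 (5.26%), against 10.9% and 10.6% of all genes.

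The 22 mitochondrial transfer RNAs had 4 positive and 18 negative log2 fold changes and a median of -0.08, of the opposite sign to that of the mRNAs between them. Of these, 0 were called by edgeR or DESeq2, and edgeR gave 0 of them p under 0.05 before adjustment. The highest in FPKM were MT-TC with 2260, MT-TY with 1800 and MT-TN with 1645 FPKM, which lie side by side on the minus strand between MT-ND2 and MT-CO1. MT-TY had a log2 fold change of -0.13 (SE 0.07), MT-TC -0.10 (SE 0.07) and MT-TM -0.43 (SE 0.19). MT-TM was low, with a mean of 1.15 CPM with raffinose and 1.55 CPM without, against 136 and 149 CPM for MT-TY. Several other transfer RNAs were as low as MT-TM, so their signs are uncertain. Transfer RNAs are from 59 to 75 bases long, shorter than the reads of 150 bases, so a read over one of them also covers neighbouring sequence.

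Of the markers, 4 of 7 epithelial genes reached 1 FPKM, led by KRT18 with 455 FPKM, while EPCAM and KRT19 were below 1 FPKM. The summed epithelial level was 660.0 to 693 FPKM in raffinose libraries and 857 to 994 FPKM in untreated ones. Most of it came from KRT8 and KRT18, with means of 334 and 455 FPKM. DESeq2 called 3 of the 7 lower, against 2.17% of all genes. By edgeR 0 were called, with 3 lower at an unadjusted p under 0.05, against 7.08% of all genes. Of the 7, 5 had a negative log2 fold change and 2 a positive one, EPCAM (0.41, SE 0.37) and KRT19 (0.39, SE 1.08). CDH1 had -0.15 (SE 0.09) with overlapping groups. Fibroblast markers had 2 of 7 at 1 FPKM or more, endocrine markers 1 of 5, and leukocyte and endothelial markers 0 of 6 and 0 of 4. DESeq2 also called the fibroblast marker COL3A1 (log2 fold change -0.22, DESeq2 adjusted p = 0.0344) and the endocrine marker SCG2 (-0.55, DESeq2 adjusted p = 0.0424) lower, and edgeR called neither. The fibroblast marker COL1A1 had 0.24 (SE 0.07), and its raffinose libraries lay above the untreated ones. All 5 acinar markers and the hormones INS, GCG and SST had counts of 0 in every library. The part of these genes in the results was not tested.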

How the data were processed

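Libraries marking the strand were prepared from poly(A) RNA and read as pairs of 150 bases, per the labels' protocols. Tools listed in the submitters' processing notes, with no role given, are StringTie 1.3.4d, HISAT2 2.0.4, cutadapt 1.9, DESeq2 and edgeR. The sources used here give neither the build and annotation nor whether counting used the strand. Nuclear coordinates are those of the table, and 11 of 42 nuclear members had the same coordinates in GENCODE 29. The authors deposited FPKM and estimated counts per gene, per the file headers. The deposited estimated counts are whole numbers, among which 4 occurs 7943 times and 3 and 5 occur 2779 and 1566 times over the 6 libraries, so 1 count may not stand for 1 fragment. Total counts ranged from 59723420 to 66063664 per library.

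Counts were tested with edgeR 4.0.16 in R 4.3.3 (filterByExpr with a minimum of 10, TMM, glmQLFit, glmQLFTest), with DESeq2 1.42.0 and limma 3.58.1 as alternatives. P-values were adjusted over all 18863 genes tested. The biological coefficient of variation was 27.1%. The fits were tested on simulated data with known answers. The members and all gene lists were chosen with earlier results of these data known, so lists are described by counts and medians. Named were all mitochondrial members; per complex up to 4 nuclear members with the smallest p and those with the highest and lowest FPKM; of each other list, genes called by edgeR or DESeq2 and up to 3 with the smallest p; PPARGC1A, NRF1, GABPA, ESRRA, TFAM, POLRMT and CYCS; and nuclear copies of mitochondrial genes at 1 FPKM or more. NDUFA4, NDUFA8, ATP5F1C and MT-TN were named after their values were seen. Adding the counts of nuclear copies was an alternative chosen after seeing the data. Symbols were matched as listed, and 2 list entries, FASTKD4 and PHB1, matched no gene. Likeness of the nuclear copies was taken from pairwise alignments of GENCODE 29 transcripts. A gene that the rule would name is not reported here.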

Additional observations from a re-analysis of the deposited data

How the results depend on the processing

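Of 57 members, 0 were called higher and 0 lower in every edgeR and limma fit run, and DESeq2 called 1 higher, MT-RNR2. Over all genes the 7 called higher and 16 lower became 15 and 27 at FPKM 1, 254 and 409 with DESeq2, 11 higher with limma on log2(FPKM + 0.1), and 11 higher with counts divided by 4. With each library left out the calls ranged from 0 to 15 higher and from 4 to 13 lower, with 0 higher and 4 lower without untreated replicate 3, 3 and 8 without raffinose replicate 2, 15 and 8 without untreated replicate 1, and 12 and 8 without untreated replicate 2. The replicate number as a block gave 0 higher and 0 lower. As a check of pairing, same-numbered libraries were compared by their deviations from the group means, which gave r of -0.018, -0.063 and 0.014 for numbers 1, 2 and 3, and each of the 6 had its best match under another number. The adjusted p of MT-RNR2 ranged from 0.0442 with DESeq2 to 0.443 with the block. The cause of these differences was not tested. With a library left out, the median log2 fold change ranged from 0.05 to 0.15 for mitochondrial and from -0.08 to 0.02 for nuclear members. Apart from the nuclear median, 40 log2 fold changes of named genes turned sign under a setting, and 0 of them were called there. At FPKM 1 the log2 fold change was 0.00565 for MT-CO3 and 0.0109 for NDUFS5, and for NDUFS5 6.51e-05 with upper quartile scaling and 0.000268 with counts divided by 4. With limma at pseudocounts of 1 and 0.1 it was 0.0323 and 0.0323 for MT-CO3, 0.033 and 0.0331 for NDUFS5, 6.77e-05 and 5.39e-05 for UQCRC1, and 0.0289 and 0.0356 for ESRRA. With libraries left out, the sign turned within the ranges of -0.0253 to 0.153 for MT-ND1, -0.0631 to 0.0995 for MT-ND2, -0.0221 to 0.0723 for MT-CO1, -0.0246 to 0.0831 for MT-CO2, -0.0612 to 0.0902 for MT-CO3, -0.0576 to 0.0441 for NDUFS5, -0.0406 to 0.0381 for SDHC, -0.00651 to 0.0721 for SDHD, -0.0778 to 0.0254 for UQCRC1, -0.255 to 0.0154 for CYC1, -4.14e-05 to 0.0374 for CYCS, -0.0328 to 0.239 for NRF1 and -0.304 to 0.112 for ESRRA. With 3 libraries a group, differences of the size seen in the members did not pass the edgeR test.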
